A study of Homo sapiens with 48 samples.

Results

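The genes described here are 10 transcripts of the endoplasmic reticulum stress response: HSPA5, HSP90B1, PDIA4, CALR, HYOU1, DNAJB9, DNAJC3, SDF2L1, HERPUD1 and XBP1. They were chosen by name as genes controlled by ATF6 and XBP1 in the unfolded protein response, and all 10 were found among the 19923 protein-coding genes counted. The rule itself uses names alone and no measured value, but it was set with earlier results of these data known. Poly(A) RNA had been sequenced from Kelly and NGP, established human neuroblastoma cell lines that the labels give as wild type and MYCN-amplified. Cells of each line received STM2457 at 8 µM, a small-molecule inhibitor of the m6A methyltransferase METTL3, or its solvent DMSO alone, for 3 or 6 days. Actinomycin D, an inhibitor of transcription, then followed at a concentration of 10 µg/ml, with cells taken at 0, 3 and 6 h. There were 48 libraries in 24 groups of 2, so each line had DMSO and STM2457 groups at 3 and 6 days, each sampled at 0, 3 and 6 h of actinomycin D. No engineered allele is named for either line, and each duration has its own DMSO control.

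The endoplasmic reticulum folds secreted and membrane proteins, and unfolded protein there is sensed by ATF6, IRE1 (gene ERN1) and PERK (gene EIF2AK3). ATF6 is cut to release a transcription factor, IRE1 splices XBP1 mRNA so that it encodes another, and PERK slows translation and raises ATF4. HSPA5 (BiP) and HSP90B1 (GRP94) are the main chaperones of the compartment, CALR is a lectin chaperone for glycoproteins, and PDIA4 forms disulfide bonds. HYOU1 (GRP170) is a nucleotide exchange factor for HSPA5. DNAJB9, DNAJC3 and SDF2L1 are partners of HSPA5, HERPUD1 is a membrane protein of ER-associated degradation, and XBP1 is itself both a target and a transcription factor of the response. The counts are per gene and do not separate spliced from unspliced XBP1 mRNA.

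Promoter sequence shows elements that some of the members share. ATF6 and XBP1 are known to act through the ER stress response element ERSE, written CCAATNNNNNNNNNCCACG, the related ERSE-II, written ATTGGNCCACG, and the unfolded protein response element with the core TGACGTGG. These letters were searched on both strands of RefSeq windows (GRCh38.p14) from 250 bases before to 50 bases after each annotated start, and all 10 genes had a window. ERSE was found in 4 of the 10 and in 0.0916% of all 27305 genes with a window. ERSE-II was found in 3 of the 10 and in 0.0696% of all genes, and the TGACGTGG core in HYOU1 alone and in 0.927% of all genes. In all, 7 of the 10 held ERSE or ERSE-II, while the windows of PDIA4, DNAJB9 and DNAJC3 held neither. The HYOU1 core overlaps the farther of its 2 ERSE-II matches. The members were chosen as genes controlled by ATF6 and XBP1, which act through these elements. A share above that of all genes thus follows from the choice and is no result of these data. A match of letters is no measurement of binding. The matches are printed on the gene's own strand with 10 flanking bases on each side and the matched letters in capitals, so that a match on the other strand begins with CGTGG. The longer stretch of 250 bases before the HSPA5 start shows one complete match in its surroundings.
HSPA5, ERSE, chr9:125241381-125241419, minus strand: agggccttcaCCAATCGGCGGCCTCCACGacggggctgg
HSP90B1, ERSE, chr12:103930206-103930244, plus strand: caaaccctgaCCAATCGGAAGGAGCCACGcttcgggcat
HSP90B1, ERSE on the other strand, chr12:103930311-103930349, plus strand: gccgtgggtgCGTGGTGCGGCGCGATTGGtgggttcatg
CALR, ERSE on the other strand, chr19:12938374-12938412, plus strand: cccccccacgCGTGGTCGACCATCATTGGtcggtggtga
XBP1, ERSE, chr22:28800593-28800631, minus strand: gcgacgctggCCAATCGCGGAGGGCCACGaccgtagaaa
HYOU1, ERSE-II on the other strand, chr11:119057264-119057294, minus strand: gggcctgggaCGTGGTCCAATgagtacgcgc
HYOU1, ERSE-II on the other strand, chr11:119057370-119057400, minus strand: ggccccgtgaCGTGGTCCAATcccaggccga
HERPUD1, ERSE-II, chr16:56932015-56932045, plus strand: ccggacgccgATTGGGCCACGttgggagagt
SDF2L1, ERSE-II on the other strand, chr22:21642104-21642134, plus strand: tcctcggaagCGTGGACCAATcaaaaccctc
HSPA5, bases before the start, chr9:125241344-125241593, minus strand: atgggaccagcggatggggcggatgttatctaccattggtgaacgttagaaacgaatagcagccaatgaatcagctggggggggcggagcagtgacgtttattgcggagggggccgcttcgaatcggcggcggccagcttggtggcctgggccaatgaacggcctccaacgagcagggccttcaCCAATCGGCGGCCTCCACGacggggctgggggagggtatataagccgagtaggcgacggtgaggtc

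The gene models of the count files lie on GRCh38. HSPA5 spans positions 125234853 to 125241343 of chromosome 9, HSP90B1 103930107 to 103953645 of chromosome 12, and PDIA4 149003062 to 149028662 of chromosome 7. CALR spans 12938578 to 12944489 of chromosome 19, HYOU1 119044188 to 119057227 of chromosome 11, and DNAJB9 108569867 to 108574850 of chromosome 7. DNAJC3 spans 95677139 to 95794988 of chromosome 13, SDF2L1 21642302 to 21644299 and XBP1 28794555 to 28800597 of chromosome 22, and HERPUD1 56932142 to 56944864 of chromosome 16. Fragments over all annotated exons of a gene were counted together. HSP90B1 shares 11.6% of its exon bases with C12orf73 on the opposite strand, and since strands were counted together its counts are uncertain there. The other 9 share none with another counted gene.

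The libraries held 11139550 to 21942238 fragments in genes. Synthetic ERCC spike-in RNA, not among these, took 0.265 to 0.671% of all counted fragments. Transcription factors of adrenergic neuroblastoma were present in both lines, with GATA3 at a median of 337 CPM (counts scaled to a fixed library total) in Kelly and 418 in NGP before actinomycin D. TH, the first enzyme of catecholamine synthesis, was near 0 in NGP (0.123 to 2.30 CPM). Of 9 markers of other cell types, PTPRC, PECAM1, ALB and S100B were at or near 0 in both lines. COL1A1 and COL3A1 were counted in NGP at up to 91.2 and 30.1 CPM. In Kelly COL1A1 ranged from 3.79 to 41.3 CPM before actinomycin D and COL3A1 reached 1.90. EPCAM reached 2.34 CPM in Kelly and 4.82 in NGP. Whether the 2 libraries of a group came from separate cultures is not given in the labels, so p-values measure only the spread between these libraries. Differences are log2 values from edgeR's quasi-likelihood test. The SE after each ± was derived from that test, as the size of the difference divided by the square root of its F statistic. A gene passed where its Benjamini-Hochberg adjusted p over all genes of the comparison was below 0.05. Scaling by TMM, which assumes that most genes do not change, makes every level and difference relative to the typical gene of the libraries. With scaling to the ERCC spike-ins instead, the median of all genes moved by 0.38, -0.21, 0.10 and -0.02 in the comparisons of STM2457 with DMSO (Kelly at 3 and 6 days, NGP at 3 and 6 days).

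Per length of merged exons, CALR had the highest median level of the 10 in both lines. In the 4 Kelly DMSO libraries without actinomycin D (2 at each duration) its level was 232 to 311 CPM per kb, above HSP90B1 at 124 to 166. HSPA5 followed at 104 to 154 and PDIA4 at 83.0 to 106 CPM per kb, and the ranges of HSP90B1, HSPA5 and PDIA4 overlapped from each to the next. XBP1 lay at 35.2 to 46.7, SDF2L1 at 21.1 to 25.3, HYOU1 at 12.2 to 15.9 and HERPUD1 at 8.35 to 9.95 CPM per kb, with no overlap between neighbours. DNAJC3 at 4.11 to 7.20 and DNAJB9 at 2.72 to 4.05 CPM per kb were lowest. In NGP the order was less separated, with CALR at 96.8 to 209, HSP90B1 at 82.1 to 148, XBP1 at 46.3 to 100.4, PDIA4 at 41.1 to 80.4 and HSPA5 at 39.6 to 79.0 CPM per kb, each overlapping the next. In NGP at 6 days of DMSO, XBP1 in replicate 1 (100.4) lay above CALR (96.8). HERPUD1 ranged from 11.1 to 40.6 CPM per kb there, over HYOU1 at 12.8 to 17.1 and SDF2L1 at 14.6 to 17.9. DNAJB9 at 7.76 to 8.36 lay above DNAJC3 at 3.79 to 4.59 CPM per kb, the reverse of their order in Kelly.

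The lines differed in the level of most of these genes. At 3 days of DMSO 6 of 10 passed between NGP and Kelly, where 30.0% of 17343 genes did, and at 6 days 7 of 10 passed, against 31.6%. HSPA5 was at 561 and 603 CPM in Kelly and at 310 and 297 in NGP at 3 days, with no overlap. Its difference, NGP minus Kelly, was -0.94 ± 0.076 at 3 days and -1.39 ± 0.078 at 6 days. CALR was lower in NGP by 0.54 ± 0.063 and 1.19 ± 0.064 on the log2 scale, and PDIA4 by 0.42 ± 0.079 and 1.02 ± 0.080. HSP90B1 differed by -0.17 ± 0.058 at 3 days and -0.55 ± 0.058 at 6 days, and the first turned to 0.24 with ERCC scaling, where PDIA4, CALR and DNAJC3 at 3 days did not pass (-0.0056, -0.13 and -0.37). DNAJB9 was higher in NGP, at 20.5 and 19.7 CPM against 10.3 and 6.91 in Kelly at 3 days, by 1.22 ± 0.44, and by 1.35 ± 0.44 at 6 days. DNAJC3 was lower in NGP at 3 days, by 0.78 ± 0.25 on the log2 scale. HERPUD1 and XBP1 did not pass at 3 days (0.32 ± 0.22 and 0.14 ± 0.20), although with ERCC scaling both passed as higher in NGP (0.73 and 0.55), as did HYOU1 (0.57). At 6 days they were higher in NGP by 2.103 ± 0.22 and 1.47 ± 0.20. With 1 library left out, DNAJB9 lost its call at 3 days without Kelly replicate 2 (0.97), NGP replicate 1 (1.2) or NGP replicate 2 (1.25), and at 6 days without any 1 of the 4 libraries (1.33 to 1.36). At 3 days HSP90B1 lost its call without Kelly replicate 1 (-0.14) or NGP replicate 2 (-0.13), and DNAJC3 without NGP replicate 1 (-0.64).

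**Figure D1:**
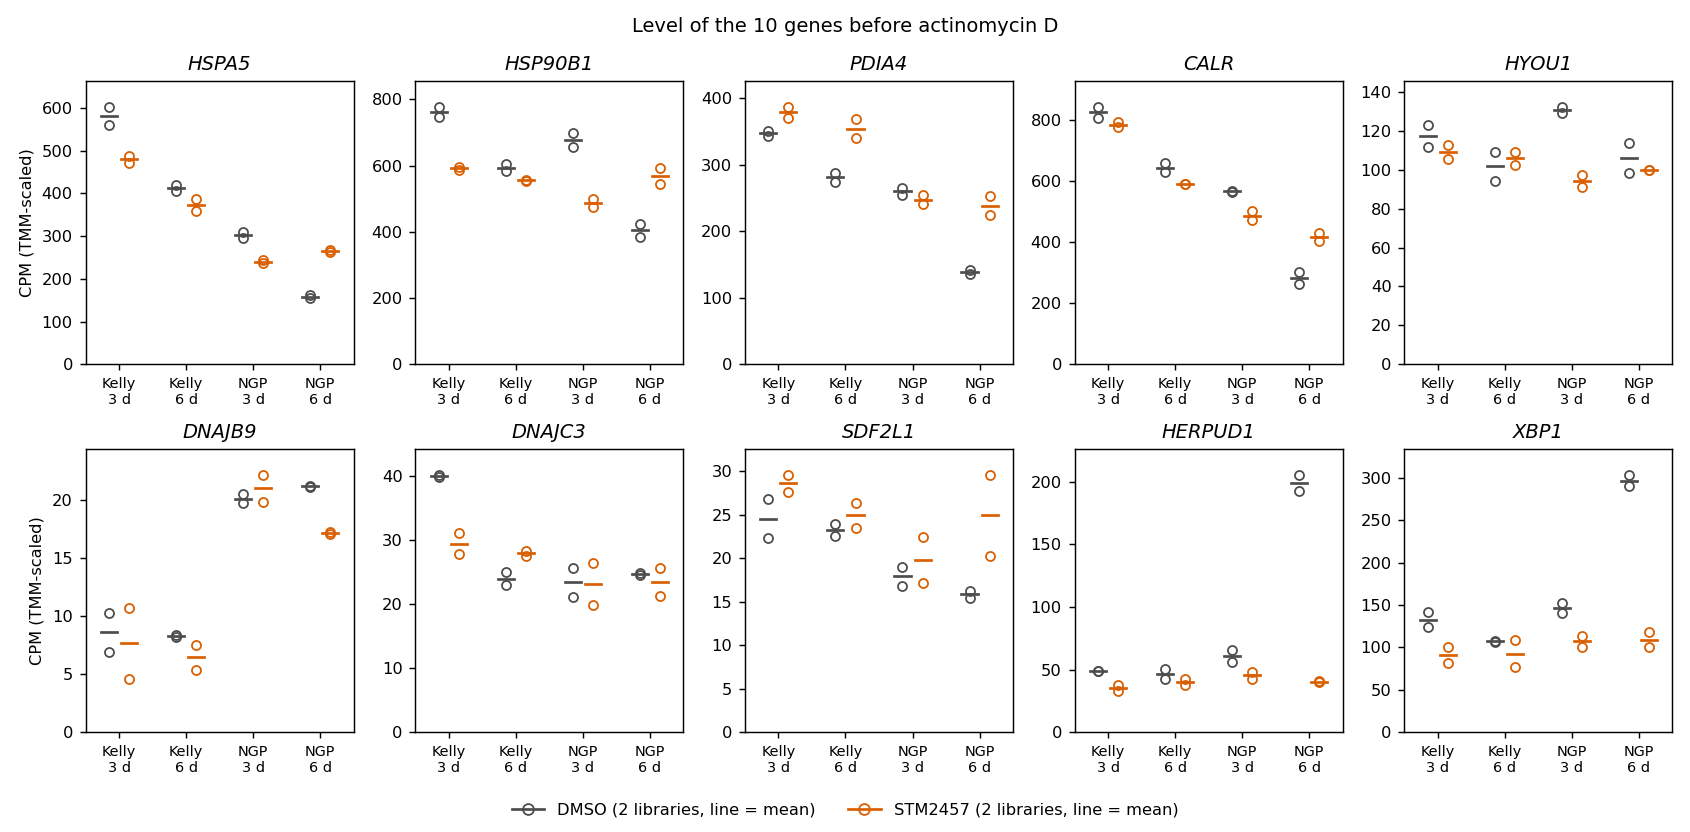
Level of each gene before actinomycin D in CPM (linear axes from 0), by line and days of treatment. Circles are libraries (grey DMSO, orange STM2457) and short lines are means of 2. HERPUD1 and XBP1 stand highest in NGP with DMSO at 6 days, where HSPA5, PDIA4, CALR and HSP90B1 stand lowest.

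The comparison of STM2457 with DMSO before actinomycin D asks how METTL3 inhibition affects the level of these transcripts. In Kelly at 3 days the chaperones HSPA5 and HSP90B1 fell relative to the typical gene, and 2 of 10 members passed where 1.68% of 16759 genes did. HSPA5 was at 561 and 603 CPM in DMSO and at 471 and 489 in STM2457. Both treated libraries lay below both controls, a difference of -0.29 ± 0.074 (edgeR adjusted p 0.0157). HSP90B1 went from 778 and 745 CPM to 587 and 597, also without overlap, by -0.37 ± 0.061 (edgeR adjusted p 2.62e-06). With ERCC scaling, which moved the median of all genes to 0.38, both values turned to 0.11 and 0.03, below that median, while PDIA4 (0.52) and CALR (0.32) passed as higher. XBP1 did not pass, at 141 and 124 CPM in DMSO against 81.2 and 101 in STM2457 (-0.55 ± 0.17, edgeR adjusted p 0.0669), although its groups did not overlap. It passed with DESeq2 (-0.56) and with limma-voom (-0.56). HERPUD1 (-0.48 ± 0.25) and DNAJC3 (-0.45 ± 0.23) did not pass, nor did PDIA4, CALR, HYOU1, DNAJB9 and SDF2L1, which lay between -0.18 and 0.21. The median of the 10 was -0.23 and that of all genes 0. Without DMSO replicate 2 (-0.225), STM2457 replicate 1 (-0.25) or STM2457 replicate 2 (-0.30) the HSPA5 call was lost, while HSP90B1 passed in all 4 such refits (-0.39 to -0.33).

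In Kelly at 6 days PDIA4, which forms disulfide bonds, was the 1 member of 10 that passed, where 3.97% of all genes did. Its libraries stood at 288 and 274 CPM in DMSO and at 340 and 368 in STM2457, without overlap, a rise of 0.36 ± 0.076 (edgeR adjusted p 0.0004). HSPA5 was at 407 and 420 CPM in DMSO and at 387 and 360 in STM2457 (-0.13 ± 0.074). HSP90B1 differed by -0.07 ± 0.061 and CALR by -0.10 ± 0.060. The other 6 lay between -0.34 and 0.24, and the median of the 10 was -0.09. The markers of other cell types summed to 45.5 to 45.9 CPM in DMSO and to 24.6 to 29.4 in STM2457, and their part was not tested. The PDIA4 call was lost without DMSO replicate 2 (0.30) or STM2457 replicate 2 (0.28). Scaled to ERCC, where all genes had a median of -0.21, PDIA4 stood at 0.10 and did not pass, and HSPA5, HSP90B1 and CALR passed as lower (-0.38, -0.33 and -0.35).

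In NGP at 3 days the chaperones HSPA5, HSP90B1 and CALR and the exchange factor HYOU1 fell. The 4 of 10 that passed, all lower, compare with 3.70% of 14661 genes. HSP90B1 went from 697 and 657 CPM in DMSO to 498 and 473 in STM2457, by -0.49 ± 0.058 (edgeR adjusted p 2.17e-09). HYOU1 went from 132 and 129 CPM to 97.1 and 90.9, by -0.48 ± 0.10 (edgeR adjusted p 0.000753). In neither gene did the groups overlap. HSPA5 went from 310 and 297 CPM to 244 and 237, by -0.34 ± 0.083. CALR changed least of the 4, from 564 and 568 CPM to 503 and 471, by -0.22 ± 0.064. XBP1 was at 152 and 140 CPM in DMSO and 114 and 101 in STM2457 and HERPUD1 at 56.4 and 65.7 against 42.6 and 48.3. Their differences of -0.45 ± 0.17 and -0.43 ± 0.17 did not pass by edgeR, while XBP1 passed with limma-voom (-0.45) and without the filter on low counts (-0.44). PDIA4 (-0.08 ± 0.084), DNAJB9 (0.05 ± 0.29), DNAJC3 (-0.03 ± 0.24) and SDF2L1 (0.14 ± 0.31) did not pass either. HSPA5 lost its call without DMSO replicate 1 (-0.305) or STM2457 replicate 2 (-0.31), CALR in those refits and without DMSO replicate 2 (-0.225 to -0.17), and XBP1 passed without STM2457 replicate 1 (-0.55). With ERCC scaling the values of HSP90B1 and HYOU1 were -0.39 and -0.38 and passed, and those of HSPA5 (-0.24) and CALR (-0.12) did not.

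In NGP at 6 days the members moved in opposite directions. HSPA5, PDIA4, CALR and HSP90B1 rose 1.4- to 1.7-fold, and HERPUD1 and XBP1 fell 4.9- and 2.7-fold. In all, 6 of 10 passed, where 7.99% of all genes did. HSPA5 stood at 161 and 155 CPM in DMSO and at 264 and 267 in STM2457, a difference of 0.75 ± 0.084 (edgeR adjusted p 2.77e-11). PDIA4 stood at 142 and 136 CPM against 224 and 253, a difference of 0.78 ± 0.085. CALR stood at 263 and 301 CPM against 430 and 403, by 0.57 ± 0.064, and HSP90B1 at 424 and 385 against 544 and 593, by 0.49 ± 0.058. All treated libraries of these 4 chaperones lay above the controls. HERPUD1 stood at 206 and 193 CPM in DMSO and at 40.7 and 40.2 in STM2457, a difference of -2.30 ± 0.18 (edgeR adjusted p 3.52e-18). XBP1 stood at 304 and 290 CPM against 100.4 and 118, a difference of -1.44 ± 0.17 (edgeR adjusted p 1.85e-10). For both genes the 2 DMSO libraries were the highest of all 16 NGP and Kelly libraries without actinomycin D. SDF2L1 was at 16.2 and 15.5 CPM in DMSO against 20.3 and 29.6 (0.66 ± 0.31) and did not pass. HYOU1 (-0.09 ± 0.10), DNAJB9 (-0.30 ± 0.29) and DNAJC3 (-0.07 ± 0.23) did not pass. Each of the 6 calls held in every refit with 1 library left out and under every scaling, where with ERCC the values were 0.71, 0.74, 0.53, 0.45, -2.34 and -1.48 in the order named. The markers of other cell types summed to 96.5 to 110.0 CPM in DMSO and to 72.4 to 74.8 in STM2457, and their part in the result was not tested. Of the genes whose windows hold ERSE, 3 thus rose and XBP1 fell, and of those with ERSE-II, HERPUD1 fell and HYOU1 and SDF2L1 did not pass.

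**Figure D2:**
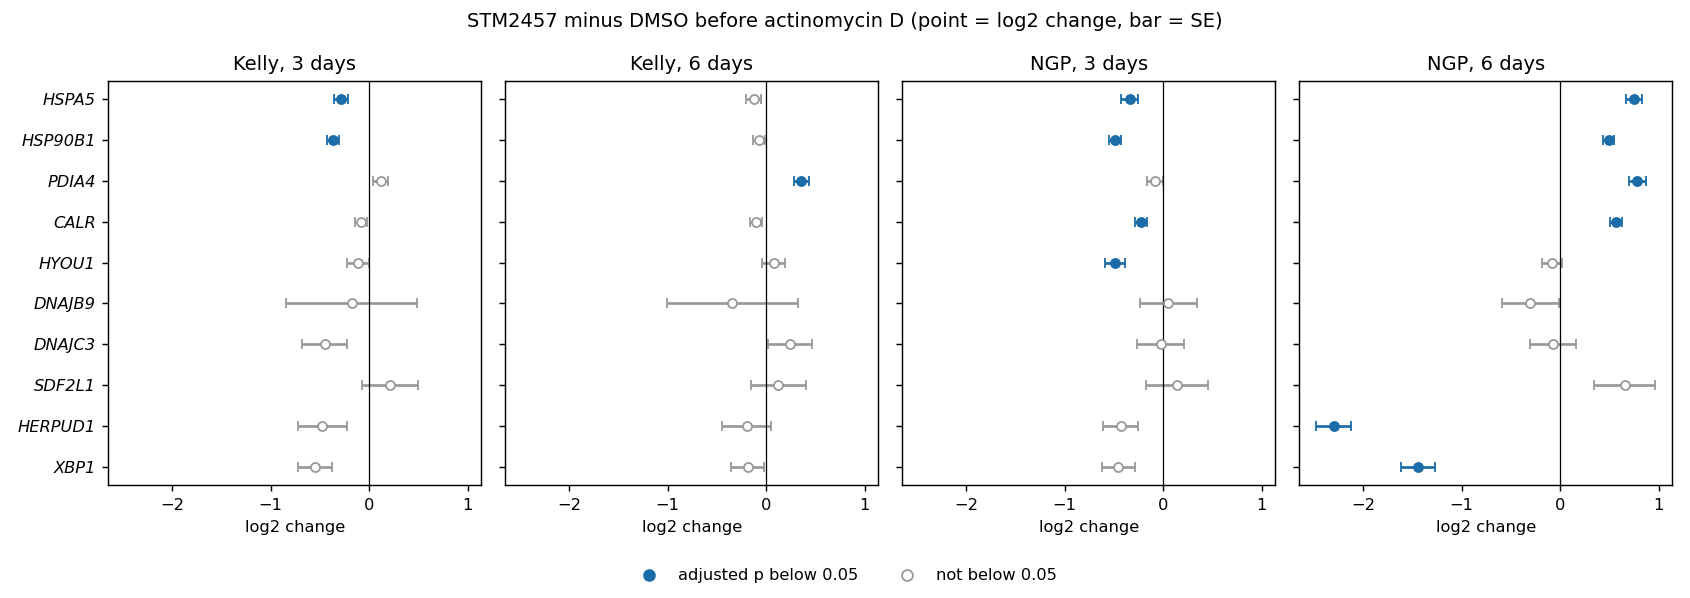
Log2 change, STM2457 minus DMSO before actinomycin D, in the 4 combinations of line and duration, with points as estimates and bars as SE. Filled points passed an edgeR adjusted p of 0.05. In NGP at 6 days HERPUD1 and XBP1 lie at -2.30 and -1.44 and 4 chaperones between 0.49 and 0.78. In Kelly at 3 days the filled points of HSPA5 and HSP90B1 turn above 0 with ERCC scaling.

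The DMSO cultures themselves differed between the durations, and these libraries are the controls of the preceding comparisons. In NGP 7 of 10 passed between DMSO at 6 and at 3 days, where 12.1% of all genes did. HSPA5 went from 310 and 297 CPM at 3 days to 161 and 155 at 6 days (-0.96 ± 0.084), CALR from 564 and 568 to 263 and 301 (-1.02 ± 0.065) and PDIA4 from 265 and 255 to 142 and 136 (-0.92 ± 0.085). HSP90B1 fell by 0.76 ± 0.058 on the log2 scale and HYOU1 by 0.32 ± 0.10. HERPUD1 went from 56.4 and 65.7 CPM to 206 and 193, a rise of 1.69 ± 0.17, and XBP1 from 152 and 140 to 304 and 290, a rise of 1.01 ± 0.17. The STM2457 cultures were not tested between durations, and their levels were 244 and 237 CPM at 3 days and 264 and 267 at 6 days for HSPA5 and 42.6 and 48.3 against 40.7 and 40.2 for HERPUD1. The rises in NGP under STM2457 at 6 days and the falls in DMSO use the same 2 control libraries and are not independent. HYOU1 lost its call without DMSO 3-day replicate 1 (-0.30), DMSO 3-day replicate 2 (-0.34) or DMSO 6-day replicate 1 (-0.21). The summed level of the 9 markers of other cell types was 82.3 to 103 CPM in NGP DMSO at 3 days and 96.5 to 110.0 at 6 days, with 3 and 6 of 9 counted, and ERCC RNA took 0.283 to 0.291% and 0.325 to 0.329% of fragments. Their part in the result was not tested.

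In Kelly 5 of 10 passed between the DMSO cultures, all lower at 6 days, where 8.52% of all genes passed. HSPA5 went from 561 and 603 CPM to 407 and 420 (-0.51 ± 0.074), HSP90B1 fell by 0.38 ± 0.061, CALR by 0.38 ± 0.060 and PDIA4 by 0.32 ± 0.076 on the log2 scale. DNAJC3, at 40.2 and 39.9 CPM against 24.98 and 23.0, fell by 0.76 ± 0.23. HERPUD1 (-0.09 ± 0.25) and XBP1 (-0.32 ± 0.17) did not pass. Scaled to ERCC, where all genes had a median of 0.35, none of the 5 passed, and HSP90B1, CALR and PDIA4 turned to 0.0042, 0.0047 and 0.059. PDIA4 lost its call without the 6-day replicate 2 (-0.27) and DNAJC3 without any 1 of the 4 libraries (-0.80 to -0.68). The markers of other cell types summed to 5.33 to 6.57 CPM in Kelly DMSO at 3 days and 45.5 to 45.9 at 6 days, with 4 and 8 of 9 markers counted. Their part in the result was not tested.

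The change of the STM2457 effect with duration was tested as an interaction. In NGP 6 of 10 passed, where 2.80% of all genes did. The effect at 6 days minus that at 3 days was 1.09 ± 0.12 for HSPA5, 0.98 ± 0.082 for HSP90B1, 0.86 ± 0.12 for PDIA4 and 0.79 ± 0.091 for CALR. For HERPUD1 it was -1.86 ± 0.25 and for XBP1 -0.99 ± 0.24 (edgeR adjusted p 0.00502). HYOU1 was at 0.40 ± 0.14 and did not pass. In DESeq2 XBP1 did not pass (-0.97, adjusted p 0.232) and HYOU1 did (0.41). In Kelly 0 of 10 passed by edgeR, where 0.788% of all genes did. Of the 10, 3 stood below 0.05 before adjustment, and HSP90B1 (0.29) was the 1 called by DESeq2, with 0 by limma-voom. Scaled to ERCC, where all genes had a median of -0.61, 5 passed in Kelly, all below 0.

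Between the lines the STM2457 effect at 3 days differed for 0 of 10 members by edgeR, where 0.161% of all genes passed. HYOU1 (-0.37 ± 0.15) was the 1 member below 0.05 before adjustment, and both limma-voom and DESeq2 called 0. The 95% intervals of the difference, by a normal approximation, were -0.27 to 0.15 for HSPA5 and -0.28 to 0.045 for HSP90B1. True differences within these bounds, among them none at all, are thus compatible with these libraries on this scale. Scaled to ERCC, where all genes had a median of -0.28, 4 members passed as lower in NGP, HSP90B1 (-0.42), PDIA4 (-0.50), CALR (-0.44) and HYOU1 (-0.67). At 6 days 6 of 10 passed, against 1.75% of all genes. NGP minus Kelly was 0.90 ± 0.11 for HSPA5, 0.69 ± 0.089 for CALR, 0.59 ± 0.082 for HSP90B1, 0.45 ± 0.11 for PDIA4, -2.08 ± 0.31 for HERPUD1 and -1.23 ± 0.28 for XBP1. PDIA4 lost its call without Kelly DMSO replicate 1 (0.41), Kelly STM2457 replicate 1 (0.39), NGP DMSO replicate 2 (0.41) or NGP STM2457 replicate 2 (0.36). These differences and those with duration in NGP share the 2 NGP DMSO libraries at 6 days.

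Actinomycin D stops new synthesis, so the change over 6 h follows the loss of existing mRNA. Since TMM holds the typical gene at 0, a value above 0 is a loss slower than that of the typical gene and a value below 0 a faster one. With ERCC scaling all genes had a median of -0.34 and -1.18 in DMSO in Kelly at 3 and 6 days, -0.81 and -1.10 in NGP, -0.72 and -0.45 in STM2457 in Kelly, and -0.64 and -0.67 in NGP. Most rises named in the next paragraphs are below 0 on that scale, and the exceptions are given there. XBP1 and HERPUD1 passed as falls in all 8 series of line, treatment and duration. By edgeR, SDF2L1 passed as a fall in the 4 DMSO series only and DNAJB9 in the 4 series at 3 days only. HYOU1, HSP90B1 and CALR passed above 0 in all 8 series, most of these values being below 0 with ERCC scaling.

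In DMSO in Kelly, 9 of 10 members passed at 3 days, where 30.1% of all genes did, and 7 of 10 at 6 days, against 26.5%. XBP1 went at 3 days from 141 and 124 CPM at 0 h through 59.7 and 47.7 at 3 h to 22.7 and 21.1 at 6 h, by -2.59 over 6 h, and at 6 days by -2.30. HERPUD1 went at 3 days from 49.0 and 48.7 CPM through 27.0 and 20.2 to 18.2 and 12.9, by -1.65, and at 6 days by -1.10. These transcripts fell at each step, with no overlap between times. DNAJB9 fell by 2.66 on the log2 scale at 3 days, from 10.3 and 6.91 CPM to 1.47 and 1.23, and its value of -0.92 at 6 days did not pass except with ERCC scaling (-2.20). SDF2L1 fell by 1.01 and 1.44 on the log2 scale at 3 and 6 days. HSPA5 fell slightly faster than the typical gene, by 0.26 at each duration. HSP90B1 rose relative to the typical gene, from 778 and 745 CPM through 999 and 1026 to 1295 and 1230 at 3 days (0.73) and by 0.52 at 6 days. HYOU1 was at 0.74 and 0.63, CALR at 0.37 and 0.31, and all 4 values passed. PDIA4 passed at 3 days (0.39) and not at 6 days (0.13), and DNAJC3 at neither (0.46 and 0.45). With ERCC scaling HSP90B1 and HYOU1 stayed above 0 at 3 days (0.30 and 0.31). The other rises that had passed turned below 0, from -0.041 for PDIA4 at 3 days to -0.97 for CALR at 6 days. Of those that had not passed, DNAJC3 was at 0.026 at 3 days and -0.83 at 6 days, and PDIA4 at -1.15 at 6 days. The HSPA5 call was lost at 3 days without the 0 h replicate 2 (-0.21) and at 6 days without the 0 h replicate 2 (-0.23) or the 6 h replicate 1 (-0.17), and that of SDF2L1 at 3 days without the 0 h replicate 1 (-0.88) or the 6 h replicate 2 (-0.89). Counted on library size alone, CALR at 6 days did not pass (0.13).

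**Figure D3:**
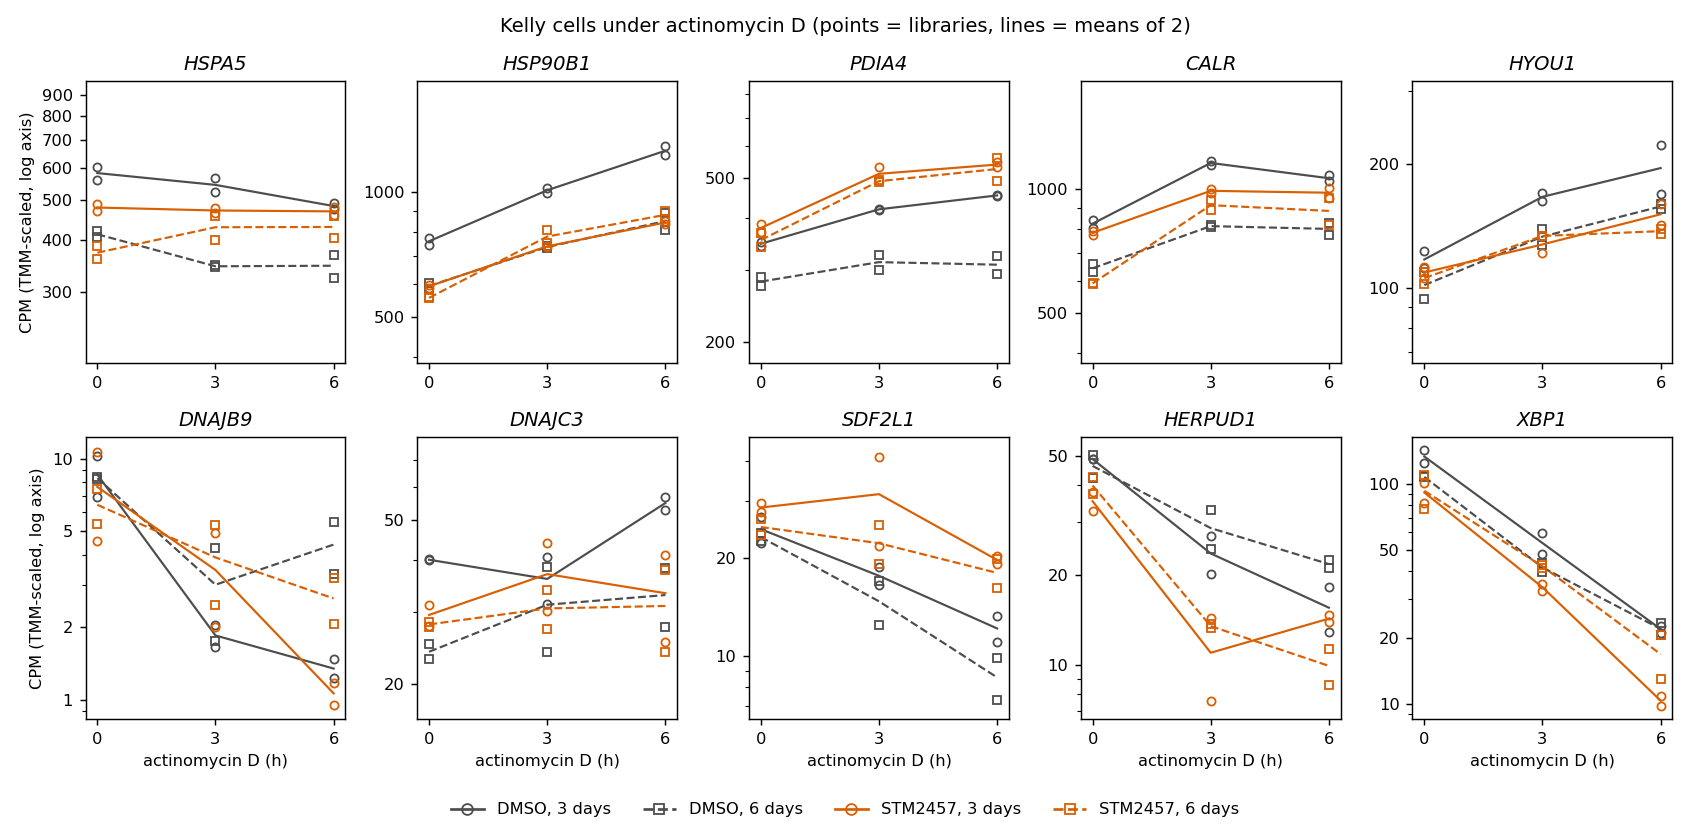
CPM on log axes against hours of actinomycin D in Kelly. Points are libraries, lines are means of 2 (grey DMSO, orange STM2457, solid 3 days, dashed 6 days). XBP1, HERPUD1, SDF2L1 in DMSO and DNAJB9 descend, and HSP90B1 and HYOU1 ascend relative to the typical gene, which with ERCC scaling holds above 0 for HSP90B1 and HYOU1 only in DMSO at 3 days and for HSP90B1 in STM2457 at 6 days.

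In DMSO in NGP, 9 of 10 passed at 3 days, where 37.4% of all genes did, and 7 of 10 at 6 days, against 36.7%. XBP1 went at 6 days from 304 and 290 CPM through 99.2 and 92.6 to 26.1 and 26.2, by -3.54, and at 3 days by -2.88. HERPUD1 went at 6 days from 206 and 193 CPM through 121 and 115 to 29.6 and 38.1, by -2.60, and at 3 days by -1.70. SDF2L1 fell by 1.67 at 3 days and 1.55 at 6 days on the log2 scale. DNAJB9 fell by 1.24 at 3 days, and its -0.60 at 6 days did not pass by edgeR, while it passed with DESeq2 (-0.56), on library size alone (-0.79) and with ERCC scaling (-1.65). HSPA5 differed most between the durations. At 3 days it went from 310 and 297 CPM through 275 and 261 to 128 and 129, by -1.25. Most of that drop came after 3 h, although the steps were not tested apart. At 6 days it went from 161 and 155 CPM through 132 and 126 to 164 and 185, by 0.10, and did not pass. PDIA4 changed by -0.29 at 3 days and by 0.72 at 6 days. HSP90B1 changed by 0.64 and 0.99, HYOU1 by 0.64 and 0.71, and CALR by 0.20 and 0.99, all of which passed and all of which turned to between -0.61 and -0.061 with ERCC scaling. DNAJC3 passed at neither duration (0.18 and -0.13). CALR at 3 days lost its call without the 0 h replicate 1 (0.19), the 6 h replicate 1 (0.17) or the 6 h replicate 2 (0.18), and on library size alone it was at -0.056.

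With STM2457, XBP1 and HERPUD1 were again lost fast. In Kelly 7 of 10 passed at 3 days and 7 at 6 days, where 26.9% and 26.4% of all genes did, and in NGP 8 and 7, where 32.5% and 32.1% did. In the order Kelly at 3 and 6 days and NGP at 3 and 6 days, XBP1 fell by 3.13, 2.47, 2.67 and 2.98 and HERPUD1 by 1.30, 2.01, 1.46 and 1.27 on the log2 scale. DNAJB9 was at -2.83, -1.30, -1.08 and -0.36, of which both values at 3 days passed, and all 4 with ERCC scaling. SDF2L1 was at -0.53, -0.48, -0.19 and -0.46 and passed in none by edgeR, although all 4 passed as falls with ERCC scaling (-1.37, -1.06, -0.84 and -1.08). HSP90B1 was at 0.52, 0.66, 0.68 and 0.43, HYOU1 at 0.47, 0.37, 0.70 and 0.77, CALR at 0.33, 0.58, 0.45 and 0.41 and PDIA4 at 0.52, 0.56, 0.39 and 0.27, and all 16 values passed. With ERCC scaling 4 of these 16 stayed above 0 without passing, HSP90B1 in Kelly at 6 days (0.083), HSP90B1 and HYOU1 in NGP at 3 days (0.023 and 0.042) and HYOU1 in NGP at 6 days (0.15), and the other 12 turned below 0. HSPA5 was at -0.03, 0.20, -0.28 and -0.59, of which the last 3 passed, and the second turned to -0.38 with ERCC scaling. On library size alone PDIA4 in NGP at 3 days (0.198) and 6 days (0.107) and HYOU1 (0.24) and HSPA5 (0.069) in Kelly at 6 days did not pass, nor did the last in a fit of the 6-day libraries alone. Calls were lost without 1 library for DNAJB9 in Kelly at 3 days (0 h replicate 1, -2.09), for HYOU1 in Kelly at 6 days (0 h replicate 2, 0.33) and for PDIA4 in NGP at 6 days (0 h replicate 1, 0.19). HSPA5 lost its call in Kelly at 6 days without the 0 h replicate 2 (0.16) or the 6 h replicate 2 (0.11) and in NGP at 3 days without the 0 h replicate 1 (-0.26) or the 6 h replicate 1 (-0.24).

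**Figure D4:**
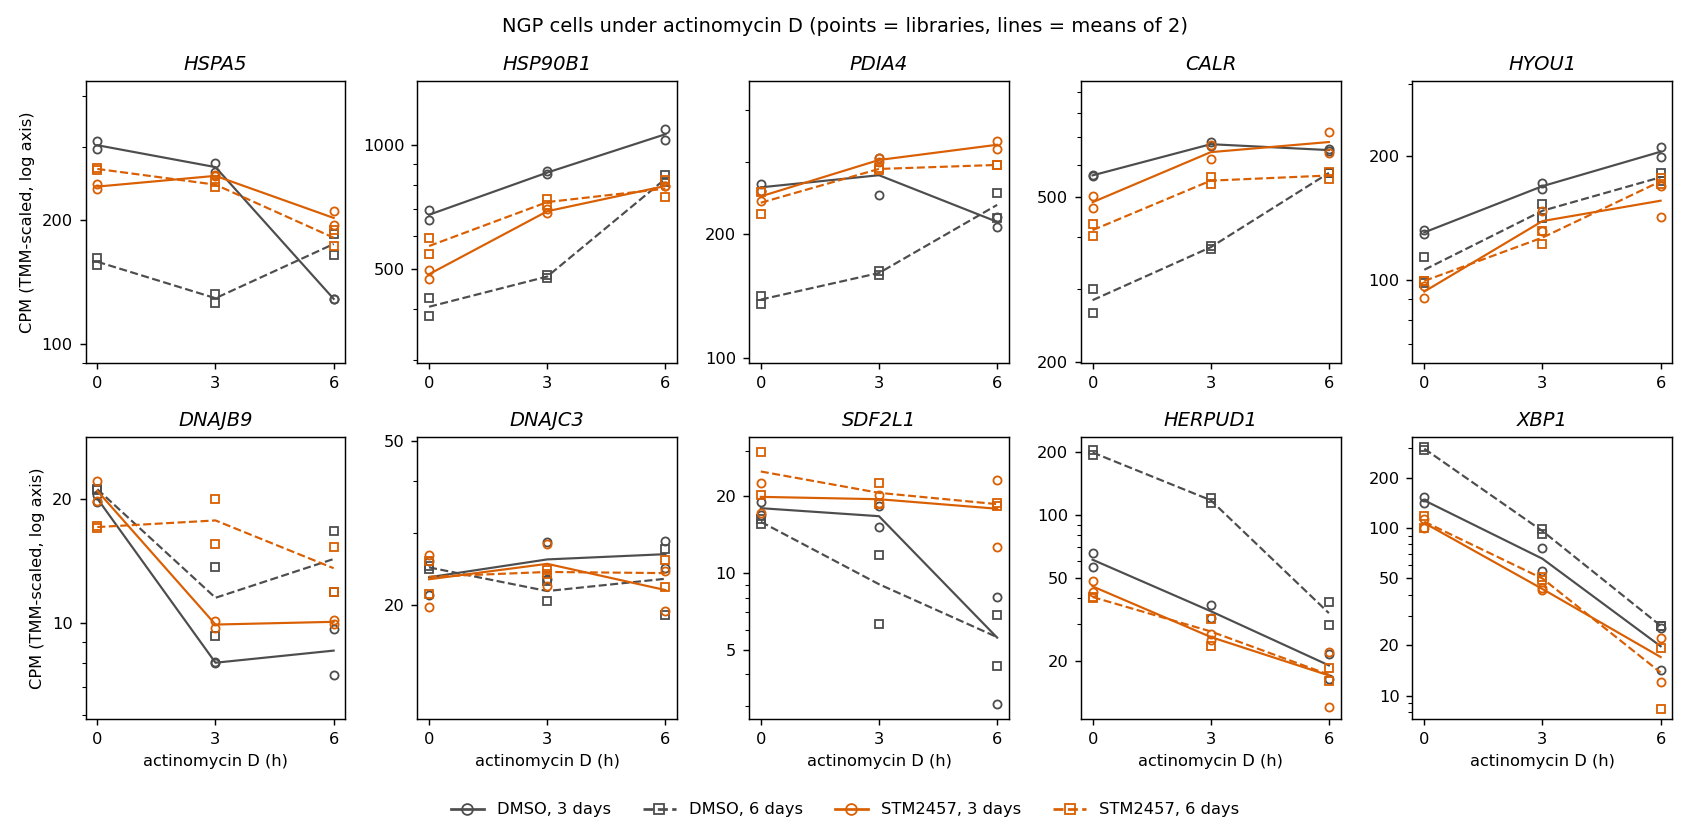
CPM on log axes against hours of actinomycin D in NGP. Points are libraries, lines are means of 2 (grey DMSO, orange STM2457, solid 3 days, dashed 6 days). HERPUD1 and XBP1 with DMSO at 6 days start highest, and HSPA5 with DMSO at 3 days drops between 3 and 6 h, from 275 and 261 CPM to 128 and 129.

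The decay difference is the change over 6 h in STM2457 minus that in DMSO, and a value above 0 means that a transcript was lost more slowly, relative to the typical gene, with the inhibitor. In NGP at 3 days HSPA5 (0.96 ± 0.12, edgeR adjusted p 4.46e-08) and PDIA4 (0.67 ± 0.12, edgeR adjusted p 0.000257) passed, 2 of 10 where 0.703% of all genes did. HSPA5 at 6 h stood at 128 and 129 CPM in DMSO and at 194 and 210 in STM2457, although it had started lower in STM2457. PDIA4 stood at 209 and 220 CPM against 337 and 322. Both held in every refit with 1 library left out and under ERCC scaling (1.11 and 0.82). CALR (0.26 ± 0.090) did not pass with TMM and passed with ERCC scaling (0.405), where all genes had a median of 0.14. SDF2L1 had the largest value, 1.48 ± 0.45, and did not pass. Its libraries at 6 h were at 8.08 and 3.07 CPM in DMSO and at 12.6 and 23.1 in STM2457, and it passed without DMSO 6 h replicate 1 (2.36) or STM2457 6 h replicate 1 (1.85).

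In Kelly at 6 days the same 2 of 10 passed, HSPA5 (0.46 ± 0.11, edgeR adjusted p 0.00861) and PDIA4 (0.43 ± 0.11, edgeR adjusted p 0.0226), where 0.424% of all genes did. HSPA5 went from 407 and 420 to 324 and 369 CPM in DMSO and from 387 and 360 to 404 and 457 in STM2457. Scaled to ERCC, where all genes had a median of 0.70, HSPA5 stood at 1.16 and PDIA4 at 1.13, and 6 members passed, among them HSP90B1 (0.84), CALR (0.96), SDF2L1 (1.66) and HYOU1 (0.44), the last of which lay at -0.26 with TMM. Both calls were lost with limma-voom and in a fit of the 6-day libraries alone. HSPA5 also lost it without DMSO 0 h replicate 2 (0.44), STM2457 0 h replicate 2 (0.41), DMSO 6 h replicate 1 (0.37) or STM2457 6 h replicate 2 (0.37), and PDIA4 without replicate 1 of any of the 4 groups (0.34 to 0.40). In Kelly at 3 days 0 of 10 passed by edgeR, where 0.221% of all genes did, with 3 below 0.05 before adjustment and 0 called by limma-voom or DESeq2. HSPA5 was at 0.23 ± 0.11 there and PDIA4 at 0.12 ± 0.11, and both turned below 0 with ERCC scaling (-0.17 and -0.29), where all genes had a median of -0.37. On that scale HSP90B1 (-0.62), CALR (-0.45), HYOU1 (-0.68) and XBP1 (-0.94) passed.

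In NGP at 6 days the difference went the other way for the chaperones. HSPA5 (-0.69 ± 0.12), CALR (-0.58 ± 0.091), HSP90B1 (-0.56 ± 0.082) and PDIA4 (-0.45 ± 0.12) were lower, and HERPUD1 was higher (1.33 ± 0.25, edgeR adjusted p 0.000214). These 5 of 10 compare with 2.54% of all genes. At 6 h the groups met for HSPA5, at 164 and 185 CPM in DMSO and 173 and 189 in STM2457. They also met for CALR, at 573 and 574 against 553 and 577, and for HSP90B1, at 844 and 811 against 820 and 746. PDIA4 still stood lower in DMSO, at a mean of 236 CPM against 295 in STM2457. HERPUD1 at 6 h was at 29.6 and 38.1 CPM in DMSO against 15.9 and 18.4 in STM2457, and XBP1, whose difference of 0.57 ± 0.26 did not pass, at 26.1 and 26.2 against 19.2 and 8.33. The decay difference and the difference before actinomycin D use the same 0 h libraries, so for HSPA5 the values -0.69 and 0.75, for HSP90B1 -0.56 and 0.49 and for HERPUD1 1.33 and -2.30 are not independent pairs. Scaled to ERCC, where all genes had a median of 0.41, HERPUD1 passed (1.76), while HSPA5 (-0.26), CALR (-0.15), HSP90B1 (-0.13) and PDIA4 (-0.02) did not. XBP1 (0.999), SDF2L1 (1.53) and HYOU1 (0.49) passed as lost more slowly on that scale. PDIA4 lost its call without STM2457 0 h replicate 2 (-0.36) or DMSO 6 h replicate 2 (-0.34), and XBP1 passed without STM2457 6 h replicate 2 (0.999).

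**Figure D5:**
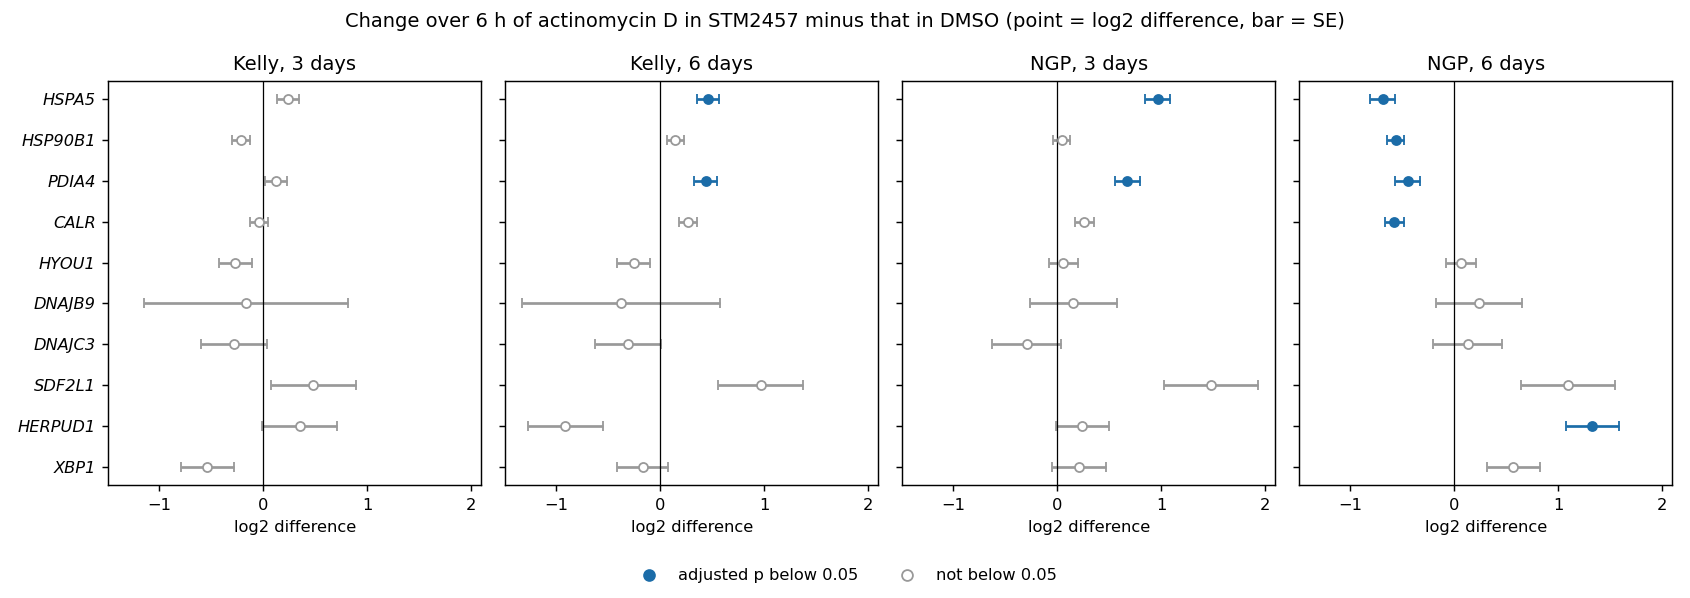
Change over 6 h of actinomycin D in STM2457 minus that in DMSO, as log2 difference (points) with SE (bars), in the 4 combinations of line and duration. Filled points passed an edgeR adjusted p of 0.05. HSPA5 and PDIA4 lie above 0 in Kelly at 6 days and NGP at 3 days and below 0 in NGP at 6 days, where with ERCC scaling they do not pass.

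Other genes of the pathway were followed in 5 lists, of which the sensors and their processing enzymes (6 genes), other folding factors (18), ER-associated degradation (16) and translocation into the compartment (12) belong to the reticulum, and 10 genes to the PERK and ATF4 arm. Of all genes 1.68% and 3.97% passed in Kelly at 3 and 6 days and 3.70% in NGP at 3 days. A single call in lists of this size is therefore no result about a list. In Kelly STM2457 changed few of them. CANX, the membrane-bound counterpart of CALR, was lower at 3 days (-0.24 ± 0.062) and 6 days (-0.19 ± 0.061), 1 of 18 folding factors each time, and turned to 0.16 with ERCC scaling at 3 days. SEC61A1, a channel subunit, was higher at 6 days (0.35 ± 0.11), 1 of 12 translocation genes. ASNS, the asparagine synthetase and an ATF4 target, was the 1 of 10 in its list that passed by edgeR, by -0.66 ± 0.12 at 3 days and -0.97 ± 0.12 at 6 days, and at 3 days it did not pass with ERCC scaling (-0.26). ATF4 itself was at -0.20 ± 0.088 and -0.27 ± 0.088, and at 6 days it passed with DESeq2 (-0.29), limma-voom (-0.28), RLE scaling (-0.29), library size only (-0.298) and ERCC scaling (-0.52). Among the 6 sensor genes 0 passed by edgeR, DESeq2 or limma-voom at either duration, with 1 below 0.05 before adjustment each time. ERN1 was at -0.25 ± 0.51 and -0.31 ± 0.50, ATF6 at -0.03 ± 0.13 and -0.15 ± 0.13 and EIF2AK3 at 0.14 ± 0.50 and 0.38 ± 0.51, and with ERCC scaling ATF6 passed at both durations, turned to 0.37 at 3 days and at -0.41 at 6 days. In NGP at 3 days CANX (-0.20 ± 0.053), PDIA6 (-0.33 ± 0.069), a relative of PDIA4, SSR4 (-0.56 ± 0.16), a subunit of the translocon-associated complex, and ASNS (-0.45 ± 0.11) were lower, and with ERCC scaling none of these 4 passed (-0.097, -0.23, -0.46 and -0.35). Of these calls, CANX in each comparison, SSR4 and SEC61A1 were lost in 3 or 4 of the 4 refits with 1 library left out, ASNS in NGP at 3 days without DMSO replicate 1 (-0.40) or STM2457 replicate 2 (-0.44), and PDIA6 without STM2457 replicate 2 (-0.30).

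In NGP at 6 days the PERK and ATF4 arm changed most, with 10 of 10 genes lower under STM2457 and a list median of -2.39 against 0.02 for all genes. In this comparison 7.99% of all genes passed, and the counts in the other lists are to be read beside that share. ATF4 stood at 493 and 525 CPM in DMSO and at 241 and 231 in STM2457 (-1.10 ± 0.085). DDIT3, which encodes CHOP, stood at 52.7 and 47.9 against 5.38 and 7.90 CPM (-2.92 ± 0.47), CHAC1 was at -5.09 ± 0.72, SESN2 at -4.23 ± 0.48 and TRIB3 at -3.00 ± 0.51. The DMSO cultures of this line had 10 of 10 of these PERK and ATF4 arm genes higher at 6 than at 3 days (median 1.88), where 12.1% of all genes passed. ATF4 was higher by 0.83 ± 0.085 and DDIT3 by 2.51 ± 0.46, from the same 2 control libraries. Of the sensors ERN1 was lower under STM2457, from 70.3 and 74.4 CPM to 17.0 and 9.81 (-2.43 ± 0.31), and ATF6 also (-0.50 ± 0.10), while EIF2AK3 was at 0.09 ± 0.26 and did not pass. In DMSO ERN1 was higher at 6 than at 3 days by 2.37 ± 0.32 and ATF6 by 0.52 ± 0.11. Among the folding factors 4 of 18 rose and 1 fell: MANF, a secreted cytoprotective factor, was at 0.85 ± 0.23, PDIA3, the partner of CALR and CANX, at 0.42 ± 0.079, and ERP29 fell by 0.82 ± 0.12 on the log2 scale. In ER-associated degradation EDEM1, which marks glycoproteins for removal, fell by 1.14 ± 0.23 and VCP, the segregase of the pathway, rose by 0.52 ± 0.076, while the other 14 of 16 did not pass. SEC63 fell by 0.48 ± 0.078, 1 of 12 translocation genes. MANF lost its call without DMSO replicate 1 (0.86), DMSO replicate 2 (0.83) or STM2457 replicate 2 (0.80).

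The decay difference was counted over the same 5 lists. In NGP at 6 days 6 of the 10 PERK and ATF4 arm genes were higher and 0 lower by edgeR (list median 1.57 against -0.02 for all genes), with 2 of 18 folding factors and 1 of 16 degradation genes lower, where 2.54% of all genes passed. In NGP at 3 days 2 of the 10 arm genes were lower (0.703% of all genes passed), in Kelly at 6 days 1 of 10 was lower (0.424%), and in Kelly at 3 days (0.221%) 0 of the 62 genes of the 5 lists passed by edgeR, with 6 below 0.05 before adjustment, 1 called by DESeq2 and 0 by limma-voom.

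Over the 16 libraries without actinomycin D, after each gene was centred within its line, the mean of the 10 members was most like POLR2A (r = 0.93), DDX3X (0.92), GAPDH (0.92), PSMD3 (0.92) and SRP14 (0.91) among 8739 genes. These correlations describe libraries that share groups and depth. Each member is itself part of that mean. Within NGP the members followed it with r from -0.315 (SDF2L1) to 0.87 (HYOU1), with HSPA5 at 0.16 and HSP90B1 at 0.42. Within Kelly r ran from 0.044 (SDF2L1) to 0.95 (HSP90B1), with PDIA4 at 0.23 and HSPA5 at 0.90.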

How the data were processed

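Fragments per gene were counted by the authors and deposited as raw counts, over GENCODE release 33 gene models on GRCh38 with 92 ERCC sequences, per the file headers. Tools named in the submitters' processing notes are HISAT2 2.1.0, Trimmomatic 0.36, FastQC 0.11.5 and, with featureCounts, Subread 1.5.3. The featureCounts command in the headers sets no strand option, so strands were counted together.

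Per line, 24 libraries were fitted with edgeR 4.0.16 in R 4.3.3 (quasi-likelihood, TMM, filterByExpr with a minimum count of 10 and total of 15), and all 48 libraries for differences between lines. P-values were Benjamini-Hochberg adjusted over all genes tested, with a threshold of 0.05. Libraries held 11139550 to 21942238 fragments. Alternatives were DESeq2 1.42.0, limma-voom (limma 3.58.1), other scalings, no filter, the same duration only, a replicate block and each library left out. The fits were tested on simulated data. All members are named. Of other pathway genes ERN1, ATF6, EIF2AK3, ATF4, DDIT3 and up to 3 called genes of largest change per list and comparison are named, and the 5 genes most like the members. The members and lists were chosen with earlier results of these data known.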

Additional observations from a re-analysis of the deposited data

Results flagged for a closer look

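The effect of STM2457 before actinomycin D differed between 6 and 3 days in NGP for 6 members, by the interaction test in edgeR. The differences, 6 minus 3 days, were 1.09 for HSPA5, 0.979 for HSP90B1, 0.864 for PDIA4, 0.791 for CALR, -1.86 for HERPUD1 and -0.986 for XBP1. At 6 days the effect also differed between the lines for the same 6 genes. NGP minus Kelly was 0.896 for HSPA5, 0.585 for HSP90B1, 0.445 for PDIA4, 0.686 for CALR, -2.08 for HERPUD1 and -1.23 for XBP1. Both sets of values use the 2 NGP DMSO libraries at 6 days.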

How the results depend on the processing

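A member value counted as the same if it was called in neither fit, or called in both with the same direction. The direction of values called in neither fit was not compared. Over 240 member values (10 genes in 24 comparisons), 234 were the same with DESeq2, 239 with RLE scaling and 232 with library size only. So were 234 with limma-voom, 239 with no low-count filter and 157 of 160 with the same duration only. With each library left out in turn, 1217 of 1280 stayed the same. Scaling to ERCC left 147 of 240 the same and reversed 42, all of them called in the main fit, with ERCC or in both. Values called in neither fit that changed sign are among the 147. An example is the decay difference of PDIA4 in Kelly at 3 days, 0.122 with TMM and -0.286 with ERCC scaling. How the spike-in was added is not given in the sources used here, and the cause of the reversals was not tested.

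The reversals listed here are of values called in the main fit, with the other scaling or in both. Sign changes of values called in neither are left out. With ERCC scaling the effect of STM2457 in Kelly at 3 days reversed for HSPA5 (0.114), HSP90B1 (0.0292), CALR (0.319), ATF6 (0.369) and CANX (0.163). The change over 6 h in DMSO reversed in Kelly at 3 days for PDIA4 (-0.041) and CALR (-0.0644) and at 6 days for HSP90B1 (-0.76), PDIA4 (-1.15), CALR (-0.967), HYOU1 (-0.649) and DNAJC3 (-0.83). In NGP it reversed at 3 days for HSP90B1 (-0.162), CALR (-0.607), HYOU1 (-0.159) and DNAJC3 (-0.626) and at 6 days for HSPA5 (-0.951), HSP90B1 (-0.0612), PDIA4 (-0.331), CALR (-0.0654) and HYOU1 (-0.345). The change in STM2457 reversed in Kelly at 3 days for HSP90B1 (-0.324), PDIA4 (-0.327), CALR (-0.515), HYOU1 (-0.37) and DNAJC3 (-0.658) and at 6 days for HSPA5 (-0.377), PDIA4 (-0.0137), CALR (-0.00321) and HYOU1 (-0.207). In NGP it reversed at 3 days for PDIA4 (-0.271) and CALR (-0.202) and at 6 days for HSP90B1 (-0.195), PDIA4 (-0.352) and CALR (-0.217). The decay difference in Kelly at 6 days reversed for HYOU1 (0.442). The duration difference in Kelly reversed for HSPA5 (-0.494), HSP90B1 (-0.356), PDIA4 (-0.416) and HYOU1 (-0.462). The DMSO cultures of Kelly reversed for HSP90B1 (0.00415), PDIA4 (0.0591) and CALR (0.0047), and the level between lines at 3 days for HSP90B1 (0.241). With library size only, CALR over 6 h in DMSO in NGP at 3 days reversed (-0.0562).

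The number of members called moved with ERCC scaling to 3 for STM2457 in Kelly at 6 days and to 2 for that in NGP at 3 days, to 4 and 6 for the decay difference in Kelly at 3 and 6 days, 5 for the duration difference and 0 for the DMSO cultures in Kelly, and 4 for the line difference at 3 days. The decay difference in Kelly at 6 days had 0 called with limma-voom and 0 with the same duration only, and the duration difference in Kelly 1 with DESeq2. With 1 library left out, the spread of a lone library being taken from the other groups, the counts ranged from 1 to 2 and 0 to 1 for STM2457 in Kelly at 3 and 6 days, from 2 to 5 for that in NGP at 3 days, 0 to 2 for the decay difference in Kelly at 6 days and 3 to 4 for the DMSO cultures of Kelly.

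Libraries with the same replicate number showed little shared deviation, which cannot settle whether they were prepared together. Over 66 pairs of groups per line, deviations of libraries with the same number correlated by -0.037 to 0.05 in Kelly and -0.028 to 0.099 in NGP. With the replicate block all 240 values kept their call, and the called ones their direction, and 6 members were called for STM2457 in NGP at 6 days. DNAJB9 had 15 to 176 counts per Kelly library.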
